A study of Mus musculus with 6 samples.

Results

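The IRF8 vector was compared with the empty vector in Tot2 cells, a mouse line of myeloid progenitors that was established from an Irf8 knockout mouse. Control cells had received the retroviral vector MSCV with a puromycin resistance marker and no insert, and the other group MSCV with FLAG-tagged IRF8. The line itself is Irf8-deficient, so both groups share that background, and IRF8 in the treated cells comes from the viral promoter. All cells were grown in 20% fetal bovine serum with 5 ng/ml of the cytokine GM-CSF, were spun with virus in 4 µg/ml polybrene, were put under 2 µg/ml puromycin from 48 hr and were harvested on day 4. Each group was measured on 2 single-dye Agilent arrays, 1 from each of 2 experiments that the series' design text calls independent. Below, experiments 1 and 2 stand for the arrays numbered replicate 1 and 2. The labels do not say whether same-numbered arrays of different groups were prepared together. These are 4 of the 6 arrays of the series. The other 2, of cells given a KLF4 vector, entered the fit to help estimate the spread, and without them 3266 genes were called higher and 4453 lower. Of 20263 genes matched on the array by RefSeq accession, 13247 were tested. A gene qualified if the scanner software read its probe as well above background on each array of some group, and "above background in both groups" below means on both control arrays and both IRF8-labelled arrays. Levels are log2 intensity minus the 75th percentile of the same array, so a level of 0 is that percentile.

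IRF8 is a transcription factor of the interferon regulatory factor family. It binds DNA weakly alone and strongly together with partners such as the ETS factor PU.1, at composite elements that join the GGAA core of ETS sites to the GAAA core of IRF sites. In mice it is required for monocytes and for several dendritic cell types, and progenitors that lack it give rise to too many neutrophils. Macrophages that differentiate under it carry many receptors for microbes, nucleotides, lipids and antibodies, and leave the cell cycle as they mature.

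The software read 47.1% to 56.8% of probes as well above background per array and found no saturated spot. The intensity at the 75th percentile lay between 436 and 880 on the 4 arrays. Across genes, which are not independent replicates, the log2 levels of a group's arrays correlated at r = 0.993 for control and 0.995 for IRF8-labelled cells, against 0.889 to 0.891 between the groups. Irf8 itself read 0.49 and 0.64 on the control arrays and 2.94 and 3.05 on the IRF8-labelled arrays, 5.39-fold higher in cells labelled as carrying the vector (log2 change 2.43 ± 0.10 SE, limma adjusted p = 5.36e-05). Whether its probe lies within the deleted part of the gene is not known here. Klf4, which was not on this vector, read -1.62 and -1.28 on the control arrays and 4.46 and 4.61 on the IRF8-labelled arrays. The markers that identify the labelled change stood apart between the groups in the same way. Csf1r, the M-CSF receptor of monocytes, read 1.09 and 1.24 on the control arrays and 6.66 and 6.69 on the IRF8-labelled arrays. Ctss, a lysosomal protease, read -5.50 and -6.27 on the control arrays and 8.15 and 8.17 on the IRF8-labelled arrays, and the antigen-presentation gene Cd74 rose 1706-fold and H2-Ab1 at least 2445-fold. The monocyte chemokine Ccl2 rose at least 1419-fold. The neutrophil granule genes Ltf and Ngp fell 82.5-fold and 73.9-fold (SE at most 0.69 on the log2 scale, limma adjusted p at most 1.54e-04). RNA was taken from whole cultures, so fewer cells of a type and less RNA per cell cannot be told apart.

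The difference covered most of the measured genes. With limma and Benjamini-Hochberg adjustment over all 13247 genes at 0.05, 8147 genes (61.5%) were called. Of these, 3416 were higher (25.8% of genes tested) and 4731 lower (35.7%) in IRF8-labelled cells. Falls were more common. The median called rise was 1.20 on the log2 scale and the median called fall was -0.88. Past 4-fold there were 1013 rises and 364 falls, past 16-fold 367 and 40 and past 64-fold 161 and 4, by fitted change, which for genes below background in a group rests on signal that was not measurable. Among genes above background in both groups the numbers were 526 and 261 past 4-fold and 125 and 24 past 16-fold. At 2-fold or more, 1986 genes were called higher (15%) and 1980 lower (14.9%), while 1731 of all calls lay under 1.5-fold. Every one of the 8147 called genes moved the same way in both experiments, which are the arrays that the calls were made on. The 2 arrays of one group did not overlap those of the other for 10638 genes (80.3%), of which 2491 were not called.

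**Figure D1:**
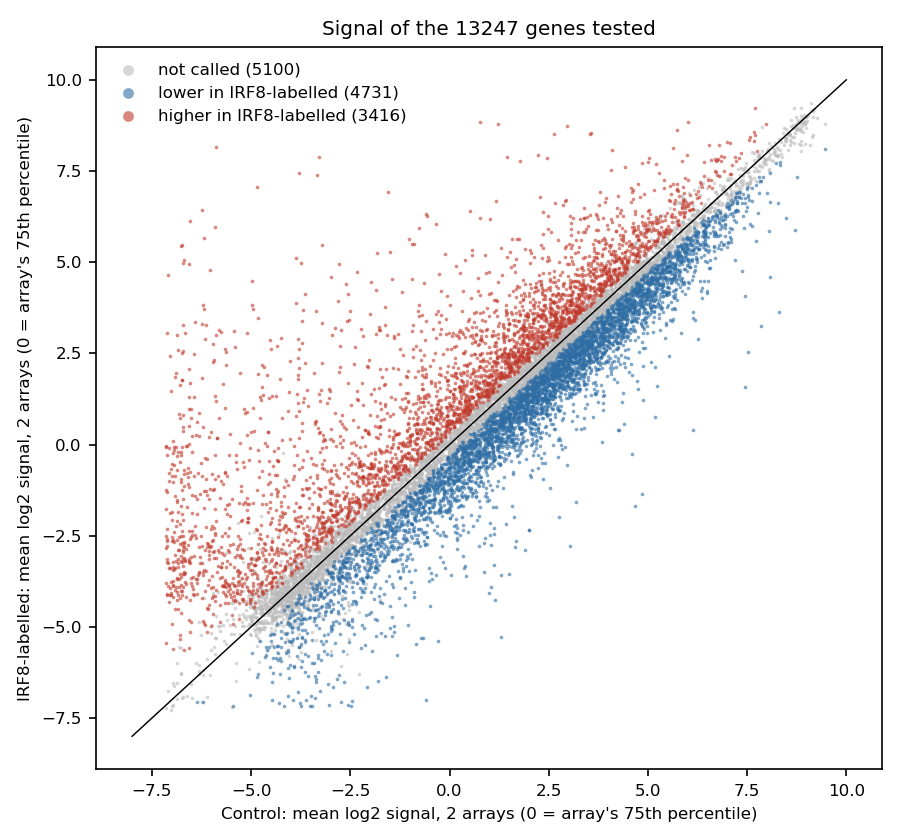
Mean log2 signal of each of the 13247 genes tested in control cells (x axis) and IRF8-labelled cells (y axis), 2 arrays a group, with 0 at the 75th percentile of an array and the line of equal signal. The 3416 genes called higher in red extend far above the line, many from control signals at the background on the left, while the 4731 called lower in blue lie in a narrower band below it.

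Several large rises started from no measurable signal. Among genes above background on both arrays of one group and on no array of the other, 431 were measured in IRF8-labelled cells only, 418 of them called, and 88 in control cells only, 71 of them called. For such genes a fold is a lower bound, "at least", against the lowest signal well above background on each array. The SE and adjusted p beside such folds, above and below, belong to the fitted log2 change. The bounds themselves were not tested. A further 320 tested genes had both arrays above background in neither of these groups and were tested because they had in the KLF4 group. Restricted to the 11679 genes above background on both arrays of both groups, 2718 were higher (23.3%) and 4492 lower (38.5%). The direction also varied with signal. Of the 3312 dimmest genes 29.2% were higher and 20.4% lower, and of the 3312 brightest 23.2% and 39.8%. The median log2 change over all genes tested was -0.13 (-0.11 in experiment 1, -0.16 in experiment 2), and -0.26 when arrays were scaled on spike-in RNAs in place of the 75th percentile. Changes below are set against the former value. With spike-in scaling, fewer genes passed (1913 higher, or 14.4%, and 2699 lower, or 20.4%). List counts that moved by over 1.5 times and by at least 2 genes under it are given beside each list. With the replicate number fitted as a block, more genes passed (4150 higher, or 31.3%, and 5800 lower, or 43.8%), and block counts of lists compare with these shares. With 2 arrays a group, an exact two-sided permutation test of a single gene cannot go below p = 0.333, so every call rests on the spread that limma pools over genes.

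**Figure D2:**
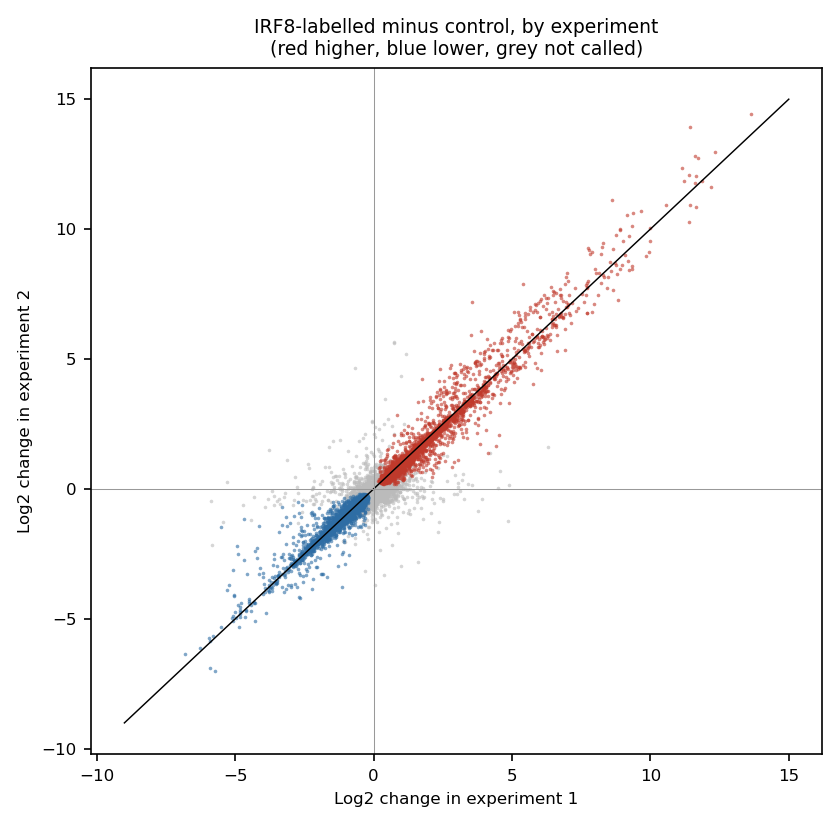
Log2 change of each gene tested, IRF8-labelled minus control, in experiment 1 (x axis) and experiment 2 (y axis), with the line of equal change. Arrays were paired by replicate number. Called genes, red higher and blue lower, follow the line in both directions, and all 8147 lie in the lower left or upper right quadrant.

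Outside the classical markers, large rises among genes measured in both groups included surface proteins, enzymes and vesicle genes. Plet1, a glycolipid-anchored surface protein, read -4.01 and -3.58 on the control arrays and 7.62 and 7.26 on the IRF8-labelled arrays, 2413-fold higher. Ephx1, the microsomal epoxide hydrolase, read -4.13 and -3.60 on the control arrays and 5.07 and 5.16 on the IRF8-labelled arrays, 506-fold higher. Both genes passed from the low end of the scale to its upper part in both experiments. Galnt6, which starts O-linked glycans, rose 217-fold. Capn2, a calcium-activated protease, rose 105-fold, and Bst1, a surface enzyme that makes cyclic ADP-ribose, rose 102-fold. Naaa, a lysosomal amidase of lipid ethanolamides, rose 86.8-fold, and Ap5s1, a subunit of an endosomal adaptor complex, rose 93.8-fold (SE at most 0.20 on the log2 scale, limma adjusted p at most 1.45e-05). St3gal5, the enzyme that makes the ganglioside GM3, was below background on both control arrays and read -6.66 and -6.78 on the control arrays and 4.95 and 4.99 on the IRF8-labelled arrays, at least 879.7-fold higher. Marcks, an actin-binding substrate of protein kinase C, rose at least 396-fold from the same kind of start. Scimp, a transmembrane adaptor of antigen-presenting cells, rose at least 366-fold, Anpep, the aminopeptidase CD13, at least 272-fold, and Slc11a1, the phagosomal metal transporter NRAMP1, at least 226-fold (SE at most 0.71 on the log2 scale, limma adjusted p at most 2.80e-04).

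Large falls besides those of the markers Ltf and Ngp came from varied genes, some of them also genes of granules or neutrophils. Atp1b1, a beta subunit of the sodium pump, read 1.17 and 1.43 on the control arrays and -3.84 and -3.31 on the IRF8-labelled arrays, 29.3-fold lower. Mogat2, which makes diacylglycerol, fell 29.2-fold, and Rapgef3, the cyclic AMP-activated exchange factor Epac1, fell 20.4-fold. Prss57, a granule serine protease, fell 27.5-fold, and Mgam, an alpha-glucosidase, fell 20.2-fold. Tuba8, an alpha-tubulin, fell 14.7-fold, and Xrcc5, the Ku80 subunit that binds broken DNA ends, fell 13.9-fold (SE at most 0.22 on the log2 scale, limma adjusted p at most 7.58e-05). Some genes were measured in control cells alone. Gtsf1l read -0.35 and -0.21 on the control arrays and -5.22 and -5.54 on the IRF8-labelled arrays, at least 26.3-fold lower. Ankrd22 fell at least 21.2-fold, the secreted Retnlg at least 17.9-fold, the endothelial-type lipase Lipg at least 10.6-fold, and Padi4, which citrullinates histones in neutrophils, at least 9.12-fold (SE at most 0.35 on the log2 scale, limma adjusted p at most 3.11e-04).

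Promoters of the genes that rose were searched for the composite element, because IRF8 is known to bind it with PU.1. The RefSeq table of build GRCm38.p6 gives 300 bases a promoter, from 250 before to 50 after the gene's start, and held 45 of the 60 genes named as the largest rises. Of these, 5 had a composite in a promoter that was searched. Genes not shown may hold one elsewhere, or in a promoter left out of the search. All 5 are shown, from 5′ to 3′ on the gene's strand, with the match in capitals (GGAA and GAAA in either order, 2 bases apart, on either strand). P2ry14 (chr3:59153443-59153742, minus strand) and Speg (chr1:75385360-75385659, plus strand) have 4 listed promoters each, of which 1 is shown. Il7r lies at chr15:9529827-9530126 (minus strand), Clec4a1 at chr6:122921598-122921897 (plus strand) and Pirb at chr7:3720333-3720632 (minus strand).
P2ry14: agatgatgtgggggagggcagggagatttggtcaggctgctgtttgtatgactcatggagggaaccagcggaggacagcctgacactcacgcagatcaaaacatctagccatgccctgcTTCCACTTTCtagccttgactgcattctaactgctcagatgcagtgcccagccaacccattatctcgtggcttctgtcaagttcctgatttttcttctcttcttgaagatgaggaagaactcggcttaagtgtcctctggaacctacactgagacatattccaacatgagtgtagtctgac
Speg: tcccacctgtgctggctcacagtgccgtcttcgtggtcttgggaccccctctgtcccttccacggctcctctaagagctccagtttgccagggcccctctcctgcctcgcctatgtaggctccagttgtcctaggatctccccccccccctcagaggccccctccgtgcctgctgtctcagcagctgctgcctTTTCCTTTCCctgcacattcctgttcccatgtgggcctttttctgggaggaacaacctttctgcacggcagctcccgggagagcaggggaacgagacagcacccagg
Il7r: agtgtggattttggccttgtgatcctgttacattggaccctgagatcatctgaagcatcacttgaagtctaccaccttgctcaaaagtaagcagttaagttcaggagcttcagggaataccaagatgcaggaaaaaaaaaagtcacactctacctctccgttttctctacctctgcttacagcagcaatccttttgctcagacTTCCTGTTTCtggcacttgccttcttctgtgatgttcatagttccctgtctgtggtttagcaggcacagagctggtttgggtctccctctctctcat
Clec4a1: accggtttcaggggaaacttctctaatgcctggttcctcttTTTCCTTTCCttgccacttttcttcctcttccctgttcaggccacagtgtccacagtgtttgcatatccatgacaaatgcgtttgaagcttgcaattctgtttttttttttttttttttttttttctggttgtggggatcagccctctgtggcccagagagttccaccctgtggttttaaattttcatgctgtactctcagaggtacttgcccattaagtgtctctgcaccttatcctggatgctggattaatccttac
Pirb: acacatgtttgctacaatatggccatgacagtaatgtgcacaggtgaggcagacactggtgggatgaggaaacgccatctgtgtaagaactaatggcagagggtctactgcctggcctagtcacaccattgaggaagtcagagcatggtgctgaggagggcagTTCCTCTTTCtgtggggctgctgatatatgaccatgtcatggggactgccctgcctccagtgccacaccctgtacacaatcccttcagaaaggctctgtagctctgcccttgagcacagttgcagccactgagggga
The match lies closest to the start in Il7r and farthest from it in Clec4a1. Speg, a striated-muscle kinase gene, rose at least 237-fold and Clec4a1, a C-type lectin receptor, 131-fold (SE at most 0.29 on the log2 scale, limma adjusted p at most 3.05e-05). The values of P2ry14, Il7r and Pirb are given with their families.

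Such matches were in a minority of promoters. Over genes with a single listed promoter, 5.25% of 8528 tested genes held a composite, 6.21% of those called higher and 4.82% of those called lower. Among the 216 that rose 16-fold or more the share was 8.80%, or 19 genes. The repeat of the IRF core, GAAA and again GAAA after 2 bases on either strand, was in 3.33% of tested genes and in 7.87% of those that rose 16-fold or more, 17 genes. Either element was in 8.11% of tested genes, 9.89% of those higher, 7.40% of those lower and 15.7% of the largest rises. Over all 22862 single promoters of the table the share with either was 8.63%. Elements of other factors were searched in the same way. The AP-1 element was in 5.11% of tested genes, 6.54% of those higher, 4.27% of those lower and 11.1% of the largest rises. For NF-kappaB the shares were 1.64%, 2.21%, 1.52% and 2.78%. Those of the CRE, E-box, C/EBP and E2F elements were smaller among the largest rises than among tested genes. A larger share among the largest rises was thus not particular to the composite and the IRF repeat. All these shares describe letters in a window and carry no test.

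Receptors for extracellular nucleotides included some of the largest rises. ATP, ADP and UDP released by damaged or activated cells act on P2X channels and P2Y receptors, and surface enzymes degrade them to adenosine. Of 26 purinergic genes tested (32 on the array, 16 above background in both groups), 13 rose and 10 fell (38.5%), and the median log2 change was 0.50, or -0.19 with genes below background in a group at their bounds, or -0.81 over genes above background in both groups. For the purinergic list, 4 rose among genes above background on all 6 arrays. P2ry6, the UDP receptor, read -6.31 and -6.81 on the control arrays and 4.89 and 5.02 on the IRF8-labelled arrays. It was below background on both control arrays and far above it on both IRF8-labelled arrays, a rise of at least 874-fold (SE at most 0.18 on the log2 scale, limma adjusted p at most 7.16e-06). P2ry14, the receptor of UDP-glucose whose promoter is shown above, read -6.44 and -5.87 on the control arrays and 2.66 and 3.14 on the IRF8-labelled arrays, at least 209.6-fold higher. P2rx7, the ATP-gated channel upstream of the NLRP3 inflammasome, rose at least 64.4-fold, and P2rx4, a related channel, rose 9.91-fold. P2ry10, a lysophosphatidylserine receptor, rose at least 27.4-fold and the ADP receptor P2ry12 at least 13.9-fold. Entpd1, the ectoenzyme CD39 that removes ATP and ADP, rose at least 51.4-fold. Its partner enzyme Nt5e, CD73, which makes adenosine, fell 4.65-fold. Among adenosine receptors Adora3 rose 33.4-fold and Adora2b 4.71-fold. The nucleotide pyrophosphatase gene Enpp4 fell 13.3-fold and the ATP-gated channel P2rx1 3.88-fold (SE at most 0.65 on the log2 scale, limma adjusted p at most 8.64e-04).

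G protein receptors for lipids, acids and metabolites moved in both directions. Among the 33 such receptors tested (40 on the array, 21 above background in both groups), 16 rose (48.5%) and 10 fell (30.3%), and the median log2 change was 0.75, or 0.34 over genes above background in both groups. For the lipid and metabolite receptors, 9 rose among genes above background on all 6 arrays. Hcar2, the niacin and ketone body receptor, read -3.34 and -4.11 on the control arrays and 3.43 and 3.36 on the IRF8-labelled arrays, 139-fold higher. Ptafr, the receptor of platelet-activating factor, read -3.84 and -3.80 on the control arrays and 1.79 and 2.04 on the IRF8-labelled arrays, 53.2-fold higher. Cysltr1, for cysteinyl leukotrienes, read -0.82 and -0.72 on the control arrays and 3.73 and 3.92 on the IRF8-labelled arrays and rose 24.1-fold. All 3 were lower on both control arrays than on both IRF8-labelled arrays, as their choice required. The proton sensor Gpr65 rose 14.7-fold (1 of 2 control arrays above background), and Gpr183, which follows oxysterols, rose at least 5.02-fold. Ch25h, which makes the precursor of that oxysterol, rose at least 28.5-fold. Against these, the short-chain fatty acid receptor Ffar2 fell 6.97-fold, the prostaglandin E receptors Ptger3 and Ptger4 5.25-fold and 2.76-fold, while Ptger2 rose 5.30-fold (SE at most 0.32 on the log2 scale, limma adjusted p at most 7.21e-04). Regulators of G protein signalling, which shorten the active state of G alpha subunits, rose in most cases. Of 12 RGS genes tested (19 on the array, 10 above background in both groups), 8 rose (66.7%) and limma called none lower (0 at an unadjusted p under 0.05, 1 with the mean of a gene's probes, 1 with the replicate block), and the median log2 change was 0.87. For the RGS genes, 5 rose with spike-in scaling. Rgs1 rose at least 5.66-fold, Rgs3 11.6-fold, Rgs18 3.88-fold, Rgs10 3.13-fold and Rgs2 2.57-fold (SE at most 0.32 on the log2 scale, limma adjusted p at most 8.18e-04).

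**Figure D3:**
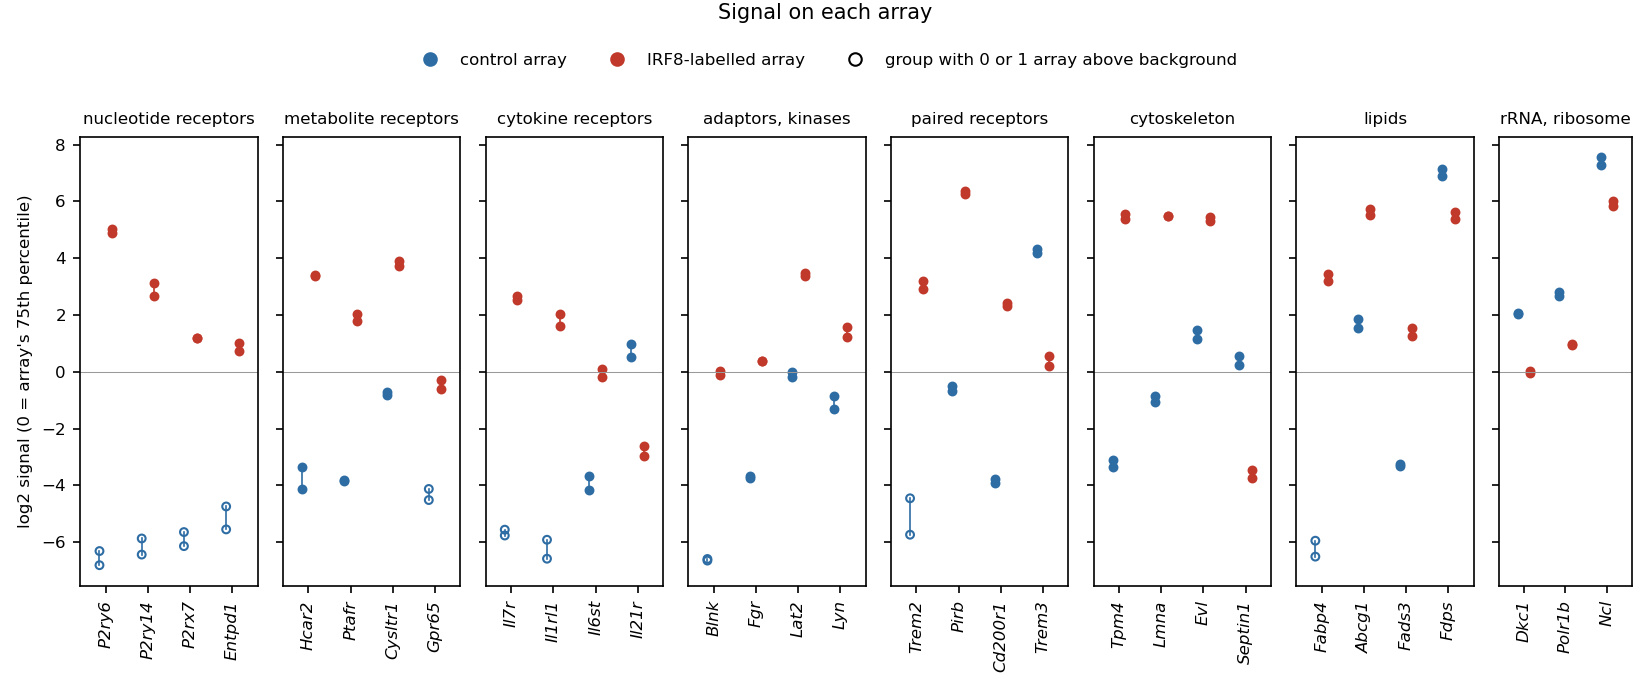
Log2 signal on each of the 2 control arrays (blue) and 2 IRF8-labelled arrays (red) for genes of 8 groups, with 0 at the 75th percentile of an array, a line joining the arrays of a group and open points for a group with 0 or 1 array above background. Genes were drawn from those whose groups do not overlap, and the nucleotide receptors start from open points near the bottom of the scale.

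Receptor chains for interleukins and other cytokines mostly rose. The 31 cytokine receptor chains tested (40 on the array, 28 above background in both groups) divided as follows: 18 rose (58.1%) and 7 fell (22.6%), and the median log2 change was 0.78, or 0.56 over genes above background in both groups. Il7r, the alpha chain of the IL-7 and TSLP receptors, read -5.76 and -5.56 on the control arrays and 2.54 and 2.67 on the IRF8-labelled arrays, at least 171-fold higher. Il1rl1, the IL-33 receptor ST2, read -6.58 and -5.91 on the control arrays and 1.62 and 2.02 on the IRF8-labelled arrays, at least 99.4-fold higher. Neither was above background in control cells. Il10ra, the ligand-binding chain for IL-10, rose 31.5-fold, and Il6st, the gp130 chain shared by the IL-6 family, read -4.17 and -3.68 on the control arrays and -0.19 and 0.08 on the IRF8-labelled arrays, 14.6-fold higher. The largest fall was that of Il21r, which read 0.51 and 0.99 on the control arrays and -2.98 and -2.61 on the IRF8-labelled arrays, 11.6-fold lower. Il2rg, the chain common to the IL-2 family and part of the IL-7 receptor, fell 1.94-fold (SE at most 0.69 on the log2 scale, limma adjusted p at most 0.00246). Of 27 genes of the JAK and STAT relay tested (28 on the array, 26 above background in both groups), 10 rose (37%) and 5 fell (18.5%), and the median log2 change was 0.23. For the JAK and STAT list, 3 fell with spike-in scaling and 3 fell without control replicate 2 or IRF8 replicate 1. Socs3, which inhibits signals through gp130, rose 6.85-fold, Jak2 4.46-fold and Stat6, the factor of IL-4 signals, 3.15-fold. Stat4, the factor of IL-12 signals, fell 3.40-fold and Jak3, the kinase bound to Il2rg, 2.03-fold (SE at most 0.15 on the log2 scale, limma adjusted p at most 8.06e-04).

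In the TNF superfamily few ligands were measurable, and receptors moved both ways. Among the 8 TNF-family ligands tested (17 listed, 16 on the array, 5 above background in both groups), 4 rose and 1 fell (12.5%), and the median log2 change was 0.63, or 0.41 with genes below background in a group at their bounds, or 0.25 over genes above background in both groups. For the TNF-family ligands, 1 rose among genes above background on all 6 arrays. Tnfsf9, the ligand of 4-1BB, read -6.27 and -6.87 on the control arrays and 1.96 and 2.18 on the IRF8-labelled arrays, at least 118-fold higher. The only ligand that fell was Ltb, lymphotoxin beta, 1.88-fold lower. Of 22 TNF-family receptors tested (24 on the array, 17 above background in both groups), 8 rose (36.4%) and 5 fell (22.7%), and the median log2 change was 0.31. For the TNF receptor list, 5 rose with spike-in scaling and 13 rose with the replicate block. Cd40, a costimulatory receptor, rose at least 17.2-fold, Tnfrsf11a, the receptor RANK, 5.93-fold and Tnfrsf1b, a receptor of TNF, 3.61-fold. Tnfrsf14, known as HVEM, fell 3.12-fold (SE at most 0.36 on the log2 scale, limma adjusted p at most 0.00169). The NF-kappaB factors act downstream of these receptors and of Toll-like receptors. Among the 35 NF-kappaB pathway genes tested (36 on the array, 33 above background in both groups), 19 rose (54.3%) and 6 fell (17.1%), and the median log2 change was 0.39. For the NF-kappaB list, 12 rose and 1 fell with spike-in scaling and 3 fell without control replicate 2. The adaptor Traf1 rose at least 33.6-fold, and the inhibitors Tnip3, Nfkbie and Tnfaip3 rose 19.1-fold (1 of 2 control arrays above background), 6.87-fold and 3.96-fold. Of the factors, Relb rose 5.02-fold and Nfkb2 2.65-fold (SE at most 0.30 on the log2 scale, limma adjusted p at most 9.57e-04).

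Kinases and adaptors that carry signals from receptors with tyrosine motifs rose widely. The 36 adaptors and kinases tested (40 on the array, 31 above background in both groups) divided as follows: 23 rose (63.9%) and 5 fell (13.9%), and the median log2 change was 0.60. For the adaptor list, 14 rose and 3 fell with spike-in scaling and 3 fell without control replicate 1, control replicate 2, IRF8 replicate 1 or IRF8 replicate 2. Blnk, the B cell linker that also serves in macrophages, read -6.59 and -6.65 on the control arrays and -0.11 and 0.02 on the IRF8-labelled arrays, at least 27.3-fold higher. Fgr, a Src-family kinase, read -3.66 and -3.75 on the control arrays and 0.38 and 0.38 on the IRF8-labelled arrays, 17-fold higher. Fyn rose at least 14.6-fold, Lyn 5.65-fold, the linker Lat2 11.6-fold and the integrin adaptor Fyb at least 5.95-fold. Lat, the linker of T cells, fell 1.90-fold (SE at most 0.34 on the log2 scale, limma adjusted p at most 0.00391). With normexp background correction Lat was not called (limma adjusted p = 0.0641). The partner chains of activating receptors, Fcer1g and Tyrobp, rose 3.89-fold and 2.46-fold (SE at most 0.20 on the log2 scale, limma adjusted p at most 0.00354).

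Paired receptors, in which activating and inhibitory members share ectodomains, showed some of the largest changes on the array. Of 23 paired receptor and Trem genes tested (31 listed, 25 on the array, 17 above background in both groups), 16 rose (69.6%) and 4 fell (17.4%), and the median log2 change was 3.33, or 2.74 with genes below background in a group at their bounds, or 0.92 over genes above background in both groups. For the paired receptors, 10 rose among genes above background on all 6 arrays. The activating Cd200r4 rose at least 101-fold and the inhibitory Cd200r1 73.9-fold. Pirb, an inhibitory receptor of MHC class I whose promoter is shown above, read -0.67 and -0.50 on the control arrays and 6.38 and 6.27 on the IRF8-labelled arrays, 120.2-fold higher, and Pira2, its activating partner, rose 58.4-fold. Trem2, a lipid receptor of macrophages, read -5.74 and -4.45 on the control arrays and 2.92 and 3.20 on the IRF8-labelled arrays and rose 285-fold (1 of 2 control arrays above background). Trem3 went the other way, at 4.34 and 4.17 on the control arrays and 0.56 and 0.22 on the IRF8-labelled arrays, 14.6-fold lower, and the collagen receptor Lair1 fell 7.20-fold (SE at most 0.43 on the log2 scale, limma adjusted p at most 1.37e-04). Probes of such near-identical genes may read more than 1 member. Among the 9 SLAM-family genes tested (12 listed, 11 on the array, 6 above background in both groups), 7 rose (77.8%) and limma called none lower (0 at an unadjusted p under 0.05), and the median log2 change was 1.12, or 0.68 over genes above background in both groups. Slamf8 rose at least 14-fold, Slamf9 at least 11.5-fold, Cd84 20.3-fold and Slamf7 at least 4.30-fold (SE at most 0.64 on the log2 scale, limma adjusted p at most 9.44e-04). Of 8 Siglec receptors tested (9 on the array, 7 above background in both groups), 3 rose (37.5%) and 2 fell (25%), and the median log2 change was -0.07. Their median was 0.03 after quantile normalization. Siglec1, the sialoadhesin of macrophages, rose at least 12-fold and Cd33 3.97-fold, while Siglecf of eosinophils fell 9.66-fold and Siglecg of B cells 3.39-fold (SE at most 0.40 on the log2 scale, limma adjusted p at most 4.41e-04).

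Tetraspanins, which organise surface membrane domains, divided. Among the 19 tetraspanins tested (27 on the array, 15 above background in both groups), 9 rose (47.4%) and 5 fell (26.3%), and the median log2 change was 0.38, or -0.07 over genes above background in both groups. Tspan33 rose at least 33.8-fold, and Cd9 16.1-fold, and Tspan32 fell 9.06-fold and Tspan2 5.79-fold (SE at most 0.30 on the log2 scale, limma adjusted p at most 6.87e-04). Of 10 secreted lectins tested (16 on the array, 8 above background in both groups), 8 rose (80.0%) and 2 fell (20.0%), and the median log2 change was 1.61, or 1.23 with genes below background in a group at their bounds, or 1.29 over genes above background in both groups. Lgals3, the galectin of macrophages, rose 31.4-fold and its binding partner Lgals3bp 11.7-fold, whereas Fcnb, a ficolin of granulocyte granules, read 0.94 and 1.07 on the control arrays and -4.13 and -4.02 on the IRF8-labelled arrays, 33.9-fold lower. The other fall was of Lgals4, 1.49-fold (SE at most 0.18 on the log2 scale, limma adjusted p at most 0.00377). With spike-in scaling Lgals4 was not called (limma adjusted p = 0.133). Among the 17 semaphorin and plexin genes tested (31 on the array, 13 above background in both groups), 5 rose (29.4%) and 2 fell (11.8%), and the median log2 change was 0.42. For the semaphorins and plexins, 2 rose with spike-in scaling, 9 rose with the replicate block and 3 rose without IRF8 replicate 2. Plxnb2, a receptor of class 4 semaphorins, stood out at -2.98 and -2.62 on the control arrays and 3.80 and 4.05 on the IRF8-labelled arrays, 106-fold higher (log2 change 6.73 ± 0.18 SE, limma adjusted p = 2.01e-05). Sema4b and Sema6b fell 2.66-fold and 2.52-fold (SE at most 0.23 on the log2 scale, limma adjusted p at most 0.00395).

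TGF-beta and BMP signals pass through paired receptor kinases to Smad factors. Of 33 genes of this pathway tested (35 on the array, 28 above background in both groups), 17 rose (51.5%) and 8 fell (24.2%), and the median log2 change was 0.45, or 0.20 over genes above background in both groups. For the TGF-beta list, 10 rose and 5 fell with spike-in scaling, 11 rose without IRF8 replicate 2 and 5 fell without control replicate 2. Receptors led the rises. Acvrl1, the receptor ALK1, read -2.68 and -2.88 on the control arrays and 1.94 and 2.05 on the IRF8-labelled arrays, 27.4-fold higher, Tgfbr3, a co-receptor, rose at least 4.77-fold, Acvr1 5.89-fold and Tgfbr2 2.49-fold. The ubiquitin ligase Smurf1 rose 4.59-fold. Of the Smads, Smad3 fell 2.88-fold, Smad6 2.39-fold and Smad5 2.18-fold (SE at most 0.16 on the log2 scale, limma adjusted p at most 0.00164). The second probe of Acvr1 changed by log2 1.63 ± 0.56 SE and was not called. Among the 28 Notch pathway genes tested (35 listed, 34 on the array, 24 above background in both groups), 11 fell (39.3%) and 9 rose (32.1%), and the median log2 change was -0.05. For the Notch list, 7 fell with spike-in scaling and 7 fell without IRF8 replicate 1. The sign of that median was not stable, being 0.02 after quantile normalization and 0.10 with the mean of a gene's probes. Notch2 rose 5.21-fold and its nuclear partner Rbpj 5.68-fold, and Notch1 fell 2.67-fold. Target genes did not follow one direction, since Nrarp read -2.63 and -2.68 on the control arrays and -6.40 and -6.60 on the IRF8-labelled arrays, at least 5.09-fold lower, Hes5 fell 10.5-fold, and the regulator Dtx1 rose at least 4.87-fold (SE at most 0.39 on the log2 scale, limma adjusted p at most 5.45e-04). With the mean of a gene's probes Notch1 was not called (limma adjusted p = 0.250).

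Inhibitors of MAP kinase signals moved in both directions. Of 17 MAP kinase inhibitors tested (20 on the array, 15 above background in both groups), 8 rose (47.1%) and 4 fell (23.5%), and the median log2 change was 0.41, or 0.16 over genes above background in both groups. Of the dual-specificity phosphatases, Dusp22 rose at least 15-fold, Dusp1 6.99-fold and Dusp3 4.92-fold, and Dusp2 fell 8.43-fold. The receptor tyrosine kinase inhibitors Spry1 and Spry2 fell 5.54-fold and 3.50-fold (SE at most 0.43 on the log2 scale, limma adjusted p at most 3.30e-04). In the Wnt list 6 of 26 genes tested rose (23.1%) and 8 fell (30.8%), with a median of -0.15. These values lay near those of all genes tested, 25.8% higher and 35.7% lower with a median of -0.13. For the Wnt list, 2 rose and 5 fell with spike-in scaling, 3 rose among genes above background on all 6 arrays and 5 fell without IRF8 replicate 2. The receptor Fzd9 fell 4.73-fold and Fzd2 rose at least 3.30-fold (SE at most 0.40 on the log2 scale, limma adjusted p at most 0.00139). With normexp background correction Fzd2 was not called (limma adjusted p = 0.0654).

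Uptake of dying cells depends on bridging proteins that bind exposed phosphatidylserine and on receptors that bind the bridges. Among the 21 uptake genes tested (30 listed, 29 on the array, 14 above background in both groups), 7 rose (33.3%) and 7 fell (33.3%), and the median log2 change was 0.16, or -0.21 over genes above background in both groups. For the uptake list, 4 fell with spike-in scaling and 4 rose among genes above background on all 6 arrays. The bridging protein Mfge8 read 0.75 and 0.78 on the control arrays and 9.17 and 8.51 on the IRF8-labelled arrays, 269.6-fold higher. Gas6, a bridge to the TAM kinases, rose 151-fold (1 of 2 control arrays above background) and another, Pros1, 3.89-fold. Axl, a TAM kinase, read -6.22 and -7.20 on the control arrays and 0.79 and 0.82 on the IRF8-labelled arrays, at least 49-fold higher, while its relative Tyro3 fell 1.78-fold. Lrp1, a large endocytic receptor, rose 41.1-fold. Itgb5, a chain of the integrin that binds Mfge8, fell 1.47-fold (SE at most 0.35 on the log2 scale, limma adjusted p at most 0.00621). With spike-in scaling Itgb5 was not called (limma adjusted p = 0.152).

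Adhesion molecules, proteases and matrix genes were mixed. Of 23 adhesion genes tested (32 on the array, 18 above background in both groups), 11 fell (47.8%) and 9 rose (39.1%), and the median log2 change was -0.47, or -0.04 over genes above background in both groups. In the deposited value table their median was 0.41. Alcam rose 13.4-fold and Icam1, a ligand of leukocyte integrins, 5.44-fold, while Icam2 fell 4.90-fold and Ncam1 7.41-fold (SE at most 0.24 on the log2 scale, limma adjusted p at most 9.23e-04). Among the 20 metalloproteinase genes tested (40 listed, 39 on the array, 13 above background in both groups), 11 rose (55%) and 2 fell, and the median log2 change was 1.04. Adam8 read 2.13 and 2.35 on the control arrays and 8.08 and 7.80 on the IRF8-labelled arrays, 52-fold higher. Mmp12, the macrophage elastase, rose at least 16-fold, Mmp25 at least 10.5-fold, Adam19 at least 5.98-fold and the inhibitor Timp2 15-fold. The falls were of Mmp17, 1.55-fold, and of the gelatinase Mmp9, at least 1.93-fold (SE at most 0.22 on the log2 scale, limma adjusted p at most 0.00448). With spike-in scaling Mmp17 was not called (limma adjusted p = 0.0950). With normexp background correction Mmp9 was not called (limma adjusted p = 0.0771). Of 11 serpins tested (23 listed, 22 on the array, 8 above background in both groups), 7 rose (63.6%) and 2 fell (18.2%), and the median log2 change was 1.13, or 0.44 over genes above background in both groups. For the serpins, 4 rose among genes above background on all 6 arrays. The 2 that fell, Serpinb1a, an inhibitor of neutrophil elastase, and Serpine2, a thrombin inhibitor, did so 10.5-fold and 8.38-fold (SE at most 0.10 on the log2 scale, limma adjusted p at most 2.84e-05). Among the 15 clotting and fibrinolysis genes tested (25 on the array, 11 above background in both groups), 9 rose (60.0%) and 4 fell (26.7%), and the median log2 change was 1.15. The plasminogen activator Plau rose 29.6-fold and its receptor Plaur 8.75-fold. Vwf, the carrier of factor VIII, read -5.49 and -4.02 on the control arrays and 1.14 and 1.31 on the IRF8-labelled arrays, 63-fold (1 of 2 control arrays above background) higher, and tissue factor, F3, fell 3.69-fold (SE at most 0.47 on the log2 scale, limma adjusted p at most 3.71e-04). Of 27 matrix genes tested (48 on the array, 20 above background in both groups), 8 rose (29.6%) and 7 fell (25.9%), and the median log2 change was -0.08. For the matrix genes, 5 rose among genes above background on all 6 arrays. The heparan sulfate proteoglycan Sdc3 read -4.83 and -5.16 on the control arrays and 4.40 and 4.57 on the IRF8-labelled arrays, at least 596-fold higher, Sdc4 rose at least 19.5-fold and Spp1, osteopontin, 6.40-fold, while Thbs4 fell at least 7.65-fold and Emilin1 4.03-fold (SE at most 0.33 on the log2 scale, limma adjusted p at most 5.41e-04).

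Actin regulators rose more often than they fell. Of 68 actin regulators tested (74 on the array, 63 above background in both groups), 42 rose (61.8%) and 10 fell (14.7%), and the median log2 change was 0.71. For the actin list, 22 rose and 3 fell with spike-in scaling. Evl, which speeds filament growth, read 1.16 and 1.46 on the control arrays and 5.31 and 5.44 on the IRF8-labelled arrays, 16.7-fold higher. Tmsb10, which holds actin monomers, rose 11.1-fold, the capping protein Capg 6.68-fold, the severing protein Gsn 6-fold and the focal adhesion protein Zyx 5.99-fold. In the WAVE complex, Nckap1 rose 11.3-fold (1 of 2 control arrays above background) and its blood-cell relative Nckap1l 4.49-fold, Cyfip1 rose 1.88-fold and Cyfip2 fell 3.88-fold (SE at most 0.31 on the log2 scale, limma adjusted p at most 0.00347). With spike-in scaling Cyfip1 was not called (limma adjusted p = 0.113). Cyfip1 and Cyfip2, which fill the same place in the complex, thus moved in opposite directions.

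Motor and filament genes held a few very large changes. Among the 28 myosin and tropomyosin genes tested (35 listed, 34 on the array, 26 above background in both groups), 14 rose and 6 fell (21.4%), and the median log2 change was 0.51, or 0.34 over genes above background in both groups. For the myosins, 8 rose with spike-in scaling. Tpm4, a tropomyosin, read -3.35 and -3.09 on the control arrays and 5.55 and 5.37 on the IRF8-labelled arrays, 409-fold higher. The class I myosins Myo1e and Myo1f rose 11.4-fold and 5.24-fold, and Myh14, a non-muscle heavy chain, 12.4-fold (SE at most 0.19 on the log2 scale, limma adjusted p at most 1.31e-04). Among the 23 intermediate filament and septin genes tested (33 on the array, 21 above background in both groups), 10 rose (43.5%) and 6 fell (26.1%), and the median log2 change was 0.38. For the filament list, 4 rose with spike-in scaling. Lmna, the A-type lamin of mature nuclei, read -1.05 and -0.84 on the control arrays and 5.49 and 5.49 on the IRF8-labelled arrays, 86.2-fold higher, whereas the B-type lamins Lmnb1 and Lmnb2 fell 2.02-fold and 2.41-fold. Vim rose 5.63-fold and the linker Plec 4.08-fold. Septin1 read 0.25 and 0.57 on the control arrays and -3.74 and -3.46 on the IRF8-labelled arrays, 16.1-fold lower, though its second probe changed by log2 -1.32, and Septin5 fell 5.16-fold (SE at most 0.21 on the log2 scale, limma adjusted p at most 8.00e-04).

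Genes of membrane traffic rose more often than they fell. The vacuolar proton pump acidifies endosomes and lysosomes. Of 20 pump genes tested (25 on the array, 18 above background in both groups), 16 rose (80.0%) and limma called none lower (0 at an unadjusted p under 0.05, 1 with quantile normalization, 1 with the replicate block), and the median log2 change was 0.87. For the pump genes, 9 rose with spike-in scaling. Atp6v0d2, a subunit form of osteoclasts and macrophages, read -6.24 and -5.38 on the control arrays and 3.09 and 3.19 on the IRF8-labelled arrays, at least 248-fold higher. Next came Atp6v0a1 at 6.69-fold, Atp6v1b2 at 4.07-fold and Tcirg1, the subunit form of osteoclasts, at 3.39-fold (SE at most 0.29 on the log2 scale, limma adjusted p at most 1.77e-04). The 72 SNARE and endosomal sorting genes tested (73 listed, 72 on the array, all tested ones above background in both groups) divided as follows: 42 rose (58.3%) and 10 fell (13.9%), and the median log2 change was 0.56. For the SNARE and sorting list, 16 rose and 2 fell with spike-in scaling and 6 fell without control replicate 2 or IRF8 replicate 1. Stx2 rose 5.05-fold, Stx3 4.17-fold, Vamp4 4.10-fold and Snx20, a sorting nexin of blood cells, 4.25-fold (SE at most 0.37 on the log2 scale, limma adjusted p at most 0.00371). Among the 43 autophagy genes tested (46 listed, 45 on the array, all tested ones above background in both groups), 17 rose (39.5%) and 8 fell (18.6%), and the median log2 change was 0.14. For the autophagy list, 10 rose and 2 fell with spike-in scaling, 4 fell without control replicate 2 or IRF8 replicate 1 and 5 fell without IRF8 replicate 2. Tecpr1, which acts at fusion of autophagosomes with lysosomes, read 0.36 and 0.42 on the control arrays and 5.09 and 5.02 on the IRF8-labelled arrays, 25.4-fold higher. The cargo receptor Sqstm1 rose 3.30-fold and Map1lc3b, the LC3 protein, 2.63-fold, while the conjugating protein Atg12 fell 3.27-fold (SE at most 0.25 on the log2 scale, limma adjusted p at most 0.00631).

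Among lipid genes, those of export and storage rose more often than they fell. The share of cholesterol synthesis genes that fell equalled that of all genes tested, 35.7%. Of 33 efflux and storage genes tested (37 listed, 36 on the array, 26 above background in both groups), 15 rose (45.5%) and 8 fell (24.2%), and the median log2 change was 0.38, or 0.14 over genes above background in both groups. The fatty acid carrier Fabp4 read -6.51 and -5.95 on the control arrays and 3.44 and 3.19 on the IRF8-labelled arrays, at least 279.6-fold higher, and Fabp3 rose 60.0-fold. Abcg1, a cholesterol exporter, read 1.55 and 1.86 on the control arrays and 5.53 and 5.75 on the IRF8-labelled arrays, 15.2-fold higher. Cyp27a1, a sterol hydroxylase, rose at least 5.38-fold, the cholesterol carriers of lysosomes Npc1 and Npc2 6.33-fold and 2.71-fold, and Plin2, a coat protein of lipid droplets, 3.75-fold. The triglyceride-forming enzymes Dgat1 and Dgat2 fell 2.14-fold and 3.79-fold (SE at most 0.21 on the log2 scale, limma adjusted p at most 0.00396). Among the 28 cholesterol synthesis and uptake genes tested (28 on the array, 27 above background in both groups), 10 fell (35.7%) and 3 rose, and the median log2 change was -0.26. For the cholesterol synthesis list, 0 rose and 3 fell with spike-in scaling, 16 fell with the replicate block, 0 rose without control replicate 1, 1 rose without IRF8 replicate 1 or IRF8 replicate 2 and 5 fell without IRF8 replicate 1. Fdps, which makes farnesyl diphosphate, fell 2.82-fold, and Dhcr7, the last step to cholesterol, fell 1.85-fold. Rises included those of Insig2, 1.91-fold, and Msmo1, 1.31-fold (SE at most 0.22 on the log2 scale, limma adjusted p at most 0.0250). Insig2 was not called under 3 of 18 alternatives (without control replicate 1 or IRF8 replicate 2 included), with a limma adjusted p up to 0.123. Msmo1 was not called under 7 of 18 alternatives (without control replicate 1, IRF8 replicate 1 or IRF8 replicate 2 included), with a limma adjusted p up to 0.619. Of 24 fatty acid synthesis genes tested (27 on the array, 23 above background in both groups), 11 fell (45.8%) and 3 rose (12.5%), and the median log2 change was -0.47. Fasn, the fatty acid synthase, fell 2.58-fold and the elongase Elovl3 at least 4.50-fold. Rises were of Fads3, a desaturase-like enzyme that read -3.25 and -3.32 on the control arrays and 1.25 and 1.54 on the IRF8-labelled arrays, 25.7-fold higher, of Acss1, 3.92-fold, and of Acsl4, 1.74-fold (SE at most 0.25 on the log2 scale, limma adjusted p at most 0.0106). With spike-in scaling Acsl4 was not called (limma adjusted p = 0.185). Among the 36 beta-oxidation genes tested (39 on the array, 35 above background in both groups), 14 rose (38.9%) and 5 fell (13.9%), and the median log2 change was 0.15. For the beta-oxidation list, 5 rose and 2 fell with spike-in scaling and 10 fell with the replicate block. The peroxisomal enzymes Acox3 and Acaa1a rose 5.72-fold and 2.66-fold, and Cpt1a, the gate of mitochondrial entry, 2.49-fold (SE at most 0.15 on the log2 scale, limma adjusted p at most 0.00117). The second probe of Acox3 changed by log2 0.48 ± 0.26 SE and was not called. In the sphingolipid list 15 of 41 genes tested rose (36.6%) and 11 fell (26.8%), against 25.8% and 35.7% of all genes tested. For the sphingolipid list, 6 fell with spike-in scaling and 7 fell without IRF8 replicate 2. Sphk1, which makes sphingosine 1-phosphate, rose 56.9-fold (1 of 2 control arrays above background), and of the ceramide desaturases Degs1 rose 5.70-fold and Degs2 fell at least 7.54-fold (SE at most 0.13 on the log2 scale, limma adjusted p at most 8.37e-05).

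Glycolysis and citric acid cycle genes had medians near 0. Of 30 glycolysis genes tested (30 on the array, 28 above background in both groups), 7 fell (23.3%) and 6 rose (20.0%), and the median log2 change was -0.02. For the glycolysis list, 3 rose and 4 fell with spike-in scaling, 13 fell with the replicate block and 4 fell without control replicate 2 or IRF8 replicate 1. Its median was 0.10 after quantile normalization. The sugar transporter Slc2a6 rose 12.9-fold and hexokinase Hk3, the form of myeloid cells, fell 4.32-fold (SE at most 0.14 on the log2 scale, limma adjusted p at most 5.14e-05). Among the 35 citric acid cycle genes tested (37 listed, 36 on the array, 34 above background in both groups), 11 fell (31.4%) and 5 rose (14.3%), and the median log2 change was -0.05. For the citric acid cycle list, 3 rose and 5 fell with spike-in scaling and 10 rose with the replicate block. Here too the median changed sign, to 0.08, after quantile normalization. Acod1, which makes itaconate from a cycle intermediate in activated macrophages, read -6.30 and -6.66 on the control arrays and -1.48 and -1.31 on the IRF8-labelled arrays. It was below background on both control arrays, and against the lowest signal well above background it rose by at least 3.42 on the log2 scale. The fitted change, not this bound, had an SE of at most 0.15 on the log2 scale and a limma adjusted p of at most 2.48e-05. Me1, the malic enzyme that yields NADPH, rose 4.27-fold, and Idh2 fell 2.55-fold (SE at most 0.15 on the log2 scale, limma adjusted p at most 5.80e-04). In the pentose phosphate list 3 of 13 genes tested rose (23.1%) and 5 fell (38.5%), with a median log2 change of -0.37. Among the falls were the ribose phosphate enzymes Rpia and Prps1, 3.74-fold and 2.87-fold lower (SE at most 0.19 on the log2 scale, limma adjusted p at most 0.00168). For the pentose phosphate list, 0 rose with spike-in scaling, 8 fell with the replicate block and 1 rose without control replicate 2 or IRF8 replicate 1.

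Within mitochondria, few respiratory chain genes were called, and most genes of protein synthesis and import were called lower. Of 37 complex I genes tested (37 on the array, all tested ones above background in both groups), 10 fell (27%) and 3 rose (8.11%), and the median log2 change was -0.12. For the complex I list, 0 rose and 1 fell with spike-in scaling, 17 fell with the replicate block, 0 rose without control replicate 1, 1 rose without control replicate 2 or IRF8 replicate 1, 5 fell without control replicate 2 and 4 fell without IRF8 replicate 1 or IRF8 replicate 2. Among the 40 genes of complexes III and IV, cytochrome c and ATP synthase tested (40 on the array, all tested ones above background in both groups), 7 fell (17.5%) and 6 rose (15%), and the median log2 change was -0.07. For the latter list, 0 rose and 0 fell with spike-in scaling, 3 rose without control replicate 1, IRF8 replicate 1 or IRF8 replicate 2, 3 fell without control replicate 1 or IRF8 replicate 2 and 2 fell without control replicate 2 or IRF8 replicate 1. Both medians turned positive after quantile normalization, at 0.02 and 0.07. Ndufab1, an acyl carrier subunit, had the largest change of complex I, 1.90-fold lower (log2 change -0.93 ± 0.09 SE, limma adjusted p = 6.41e-04). The 76 mitochondrial ribosomal protein genes tested (77 on the array, all tested ones above background in both groups) divided as follows: 62 fell (81.6%) and 1 rose (1.32%), and the median log2 change was -0.56. For the mitochondrial ribosome, 14 fell with spike-in scaling and 3 rose with the replicate block. Under spike-in scaling 20.4% of all genes tested fell, a share no lower than that of this list. Mrpl16 read 4.79 and 5.10 on the control arrays and 3.49 and 3.73 on the IRF8-labelled arrays, 2.52-fold lower. The single rise was that of Mrpl52, at 3.36 and 3.46 on the control arrays and 4.62 and 4.67 on the IRF8-labelled arrays, 2.35-fold higher (SE at most 0.16 on the log2 scale, limma adjusted p at most 0.00140). Among the 32 import and chaperone genes tested (32 on the array, all tested ones above background in both groups), 24 fell (75%) and limma called none higher (0 at an unadjusted p under 0.05), and the median log2 change was -0.58. For the import genes, 7 of 32 fell with spike-in scaling, a share close to the 20.4% of all genes tested. The scaffold Phb fell 2.31-fold, the chaperonin Hspd1 1.91-fold and the import chaperone Timm9 2.53-fold (SE at most 0.09 on the log2 scale, limma adjusted p at most 6.43e-04).

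Enzymes that supply building blocks for nucleotides were mostly lower. Of 29 serine, glycine and folate genes tested (33 on the array, 28 above background in both groups), 22 fell (75.9%) and 3 rose (10.3%), and the median log2 change was -1.05. Phgdh, the first step of serine synthesis, read 6.59 and 6.41 on the control arrays and 4.52 and 4.46 on the IRF8-labelled arrays, 4.03-fold lower, and Psph, the last, fell 4.37-fold. The serine hydroxymethyltransferases Shmt1 and Shmt2 fell 4.19-fold and 3.26-fold. Those that rose included Aldh1l1 and Ggh, which oxidise and trim folates, at 6.03-fold (1 of 2 control arrays above background) and 5.55-fold (SE at most 0.22 on the log2 scale, limma adjusted p at most 6.45e-04). Among the 35 purine and pyrimidine genes tested (36 on the array, all tested ones above background in both groups), 22 fell (62.9%) and 6 rose (17.1%), and the median log2 change was -0.92. For the nucleotide synthesis list, 1 rose with spike-in scaling. Dut, which removes dUTP, fell 3.60-fold, the CTP synthase Ctps 3.44-fold, Ppat, the first step of purine synthesis, 3.41-fold and Umps, the last of UMP, 3.40-fold. Samhd1, which degrades deoxynucleotides, rose 2.87-fold (SE at most 0.23 on the log2 scale, limma adjusted p at most 0.00306).

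Amino acid and polyamine genes moved in both directions. Of 26 polyamine and arginine genes tested, 8 rose (30.8%) and 8 fell (30.8%), against 25.8% and 35.7% of all genes tested. Smox, which oxidises spermine, read -3.90 and -3.54 on the control arrays and 2.56 and 3.02 on the IRF8-labelled arrays, 90.9-fold higher. Sat1, which acetylates polyamines for export, rose 5.22-fold and Arg2, a mitochondrial arginase, 12.2-fold (1 of 2 control arrays above background), while the spermidine synthase Srm fell 3.26-fold (SE at most 0.25 on the log2 scale, limma adjusted p at most 1.37e-04). The oxidase Paox, which like Sat1 serves polyamine breakdown, fell 4.46-fold (log2 change -2.16 ± 0.11 SE, limma adjusted p = 1.11e-04). Among amino acid and peptide transporters, Slc15a3, a lysosomal histidine and peptide carrier, read -6.47 and -5.66 on the control arrays and 0.16 and 0.28 on the IRF8-labelled arrays, at least 32.7-fold higher and Slc7a7 rose 11-fold, while Slc43a1 fell 6.32-fold (SE at most 0.30 on the log2 scale, limma adjusted p at most 9.31e-05). The heme synthesis enzyme Alad fell 2.43-fold. Hmox1, which opens the heme ring, read -0.91 and -0.96 on the control arrays and 3.25 and 3.28 on the IRF8-labelled arrays, 18.3-fold higher, and Blvrb, which reduces the product, rose 5.68-fold (SE at most 0.16 on the log2 scale, limma adjusted p at most 2.29e-04). In that list 5 of 21 genes tested rose (23.8%) and 11 fell (52.4%). For the heme list, 7 fell with spike-in scaling. Glutathione transferases split, Gstt1 rising 15.8-fold (1 of 2 control arrays above background) and Gstm1 falling 5.11-fold (SE at most 0.23 on the log2 scale, limma adjusted p at most 1.54e-04).

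Most genes of ribosome assembly were called lower, and few genes of the ribosome's own proteins were called unless the replicate number was a block. Of 69 ribosome assembly and RNA polymerase I genes tested (70 on the array, all tested ones above background in both groups), 63 fell (91.3%) and limma called none higher (1 at an unadjusted p under 0.05, 1 with the replicate block, 1 without control replicate 2), and the median log2 change was -1.01. Dkc1, the pseudouridine synthase of ribosomal RNA, read 2.03 and 2.07 on the control arrays and 0.01 and -0.03 on the IRF8-labelled arrays, 4.17-fold lower. Polr1b, a large subunit of RNA polymerase I, read 2.67 and 2.80 on the control arrays and 0.93 and 0.99 on the IRF8-labelled arrays, 3.42-fold lower. Ncl, nucleolin, read 7.56 and 7.30 on the control arrays and 6.01 and 5.84 on the IRF8-labelled arrays, 2.83-fold lower. All 3 were higher on both control arrays, as their choice required. Rrp1b fell 3.42-fold, Wdr12 3.28-fold and Nop10, a partner of Dkc1, 2.85-fold (SE at most 0.20 on the log2 scale, limma adjusted p at most 0.00123). Among the 77 cytosolic ribosomal protein genes tested (79 listed, 77 on the array, all tested ones above background in both groups), 5 fell (6.49%) and limma called none higher (0 at an unadjusted p under 0.05), and the median log2 change was -0.23. Those that fell included Rps4x (log2 change -0.50 ± 0.15 SE), Rpl36a (log2 change -0.43 ± 0.09 SE), Rpl21 (log2 change -0.42 ± 0.13 SE) and Rps21 (log2 change -0.38 ± 0.12 SE). Rps4x was not called under 4 of 18 alternatives (without control replicate 1 or IRF8 replicate 2 included), with a limma adjusted p up to 0.154. Rpl36a was not called under 3 of 18 alternatives (without control replicate 1 or IRF8 replicate 1 included), with a limma adjusted p up to 0.224. Rpl21 was not called under 6 of 18 alternatives (without control replicate 1, control replicate 2, IRF8 replicate 1 or IRF8 replicate 2 included), with a limma adjusted p up to 0.221. Rps21 was not called under 9 of 18 alternatives (without control replicate 1, control replicate 2, IRF8 replicate 2, KLF4 replicate 1 or KLF4 replicate 2 included), with a limma adjusted p up to 0.259. For the ribosomal proteins, 0 fell with spike-in scaling. With the replicate block 40 of 77 fell, a larger share than the 43.8% of all genes tested. The number that fell was 0 without control replicate 1, 2 without control replicate 2, 3 without IRF8 replicate 1 and 1 without IRF8 replicate 2. All 77 lay between log2 -0.57 and 0.05, against the median of -0.13 over all genes tested.

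**Figure D4:**
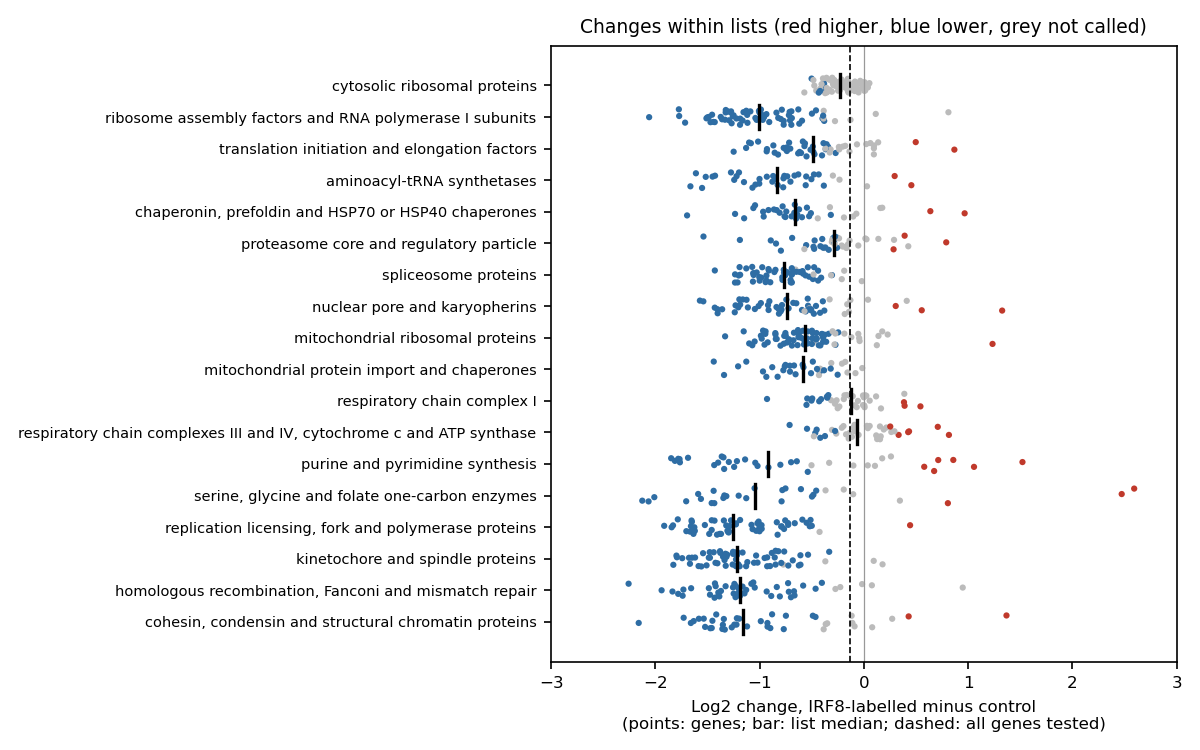
Log2 change of every tested gene (x axis, IRF8-labelled minus control) in 18 lists of the growth and division machinery, with the list median as a bar and the median of all genes tested, -0.13, as a dashed line. The points of the ribosomal protein list crowd near the dashed line, while those of ribosome assembly, replication and kinetochore lists have medians between log2 -1.25 and -1.01.

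Translation, folding and degradation genes were also mostly lower where called. Of 50 translation factors tested (52 on the array, all tested ones above background in both groups), 33 fell (66%) and 2 rose (4%), and the median log2 change was -0.49. For the translation factors, 0 rose and 10 fell with spike-in scaling. With that scaling the share of translation factors that fell was no larger than the 20.4% of all genes tested. Eif2b3, of the exchange factor eIF2B, fell 2.38-fold and Eif5a 2.02-fold. Those that rose were Eif4e3, 1.82-fold, and Eif4ebp1, an inhibitor of cap binding, 1.41-fold (SE at most 0.13 on the log2 scale, limma adjusted p at most 0.00517). With spike-in scaling Eif4e3 and Eif4ebp1 were not called (limma adjusted p = 0.106 and 0.448). Among the 38 aminoacyl-tRNA synthetase genes tested (39 on the array, all tested ones above background in both groups), 33 fell (86.8%) and 2 rose (5.26%), and the median log2 change was -0.84. For the synthetase list, 0 rose and 20 fell with spike-in scaling and 0 rose without control replicate 1, IRF8 replicate 1, IRF8 replicate 2, KLF4 replicate 1 or KLF4 replicate 2. Dars fell 3.17-fold, Vars 2.93-fold and Mars1 2.74-fold, and the rises were of Sars, 1.23-fold, and Fars2, 1.37-fold (SE at most 0.14 on the log2 scale, limma adjusted p at most 0.0447). Sars was not called under 11 of 18 alternatives (leaving out any of the 6 arrays included), with a limma adjusted p up to 0.747. Fars2 was not called under 10 of 18 alternatives (without control replicate 1, IRF8 replicate 1, IRF8 replicate 2, KLF4 replicate 1 or KLF4 replicate 2 included), with a limma adjusted p up to 0.525. Of 35 chaperone genes tested (35 on the array, all tested ones above background in both groups), 26 fell (74.3%) and 2 rose (5.71%), and the median log2 change was -0.66. For the chaperones, 0 rose and 11 fell with spike-in scaling. The HSP90 partners Fkbp4 and Fkbp5 fell 3.24-fold and 2.36-fold, and the HSP40 genes Dnajb6 and Dnajc9 rose 1.95-fold and 1.56-fold (SE at most 0.31 on the log2 scale, limma adjusted p at most 0.00725). With spike-in scaling Dnajb6 and Dnajc9 were not called (limma adjusted p = 0.100 and 0.276). Among the 44 proteasome genes tested (44 on the array, all tested ones above background in both groups), 20 fell (45.5%) and 3 rose (6.82%), and the median log2 change was -0.29. For the proteasome list, 0 rose and 5 fell with spike-in scaling, 5 rose and 32 fell with the replicate block, 1 rose without control replicate 1, IRF8 replicate 1, IRF8 replicate 2, KLF4 replicate 1 or KLF4 replicate 2, 12 fell without control replicate 1 or control replicate 2, 8 fell without IRF8 replicate 1 and 11 fell without IRF8 replicate 2. The share of proteasome genes that fell with spike-in scaling was smaller than the 20.4% of all genes tested. The assembly chaperones Psmg1 and Psmg2 fell most, 2.91-fold and 2.28-fold, ahead of any subunit. Rises were of Psme2, an activator subunit, 1.73-fold, Pomp, 1.31-fold, and Psmd8, 1.22-fold (SE at most 0.12 on the log2 scale, limma adjusted p at most 0.0423). Pomp was not called under 10 of 18 alternatives (without control replicate 1, IRF8 replicate 1, IRF8 replicate 2, KLF4 replicate 1 or KLF4 replicate 2 included), with a limma adjusted p up to 0.614. Psmd8 was not called under 11 of 18 alternatives (leaving out any of the 6 arrays included), with a limma adjusted p up to 0.763. With spike-in scaling Psme2 was not called (limma adjusted p = 0.140).

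Genes of RNA processing and nuclear transport were mostly lower. Of 59 spliceosome genes tested (59 on the array, all tested ones above background in both groups), 53 fell (89.8%) and limma called none higher (0 at an unadjusted p under 0.05), and the median log2 change was -0.77. For the spliceosome, 28 fell with spike-in scaling. Hnrnpd, which binds AU-rich RNA, fell 2.70-fold, the splicing factor Srsf7 2.36-fold and Lsm6, of the U6 particle, 2.36-fold (SE at most 0.16 on the log2 scale, limma adjusted p at most 0.00108). Among the 54 nuclear pore and karyopherin genes tested (54 on the array, all tested ones above background in both groups), 42 fell (77.8%) and 3 rose (5.56%), and the median log2 change was -0.73. For the nuclear pore list, 1 rose and 23 fell with spike-in scaling. The pore anchor Ndc1 read 3.82 and 3.80 on the control arrays and 2.26 and 2.21 on the IRF8-labelled arrays, 2.98-fold lower, Nup43 fell 2.91-fold, Nup107 2.65-fold and the microRNA precursor exporter Xpo5 2.70-fold. The rises were of Ipo13, 2.51-fold, Ipo4, 1.47-fold, and Kpna4, 1.24-fold, all of them carriers (SE at most 0.15 on the log2 scale, limma adjusted p at most 0.0368). Kpna4 was not called under 11 of 18 alternatives (leaving out any of the 6 arrays included), with a limma adjusted p up to 0.736. With spike-in scaling Ipo4 was not called (limma adjusted p = 0.377).

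Genes of DNA replication, segregation and repair fell in nearly every case tested. Of 56 replication genes tested (56 on the array, all tested ones above background in both groups), 54 fell (96.4%) and 1 rose (1.79%), and the median log2 change was -1.25. Gins1, of the replicative helicase, fell 3.77-fold, Mcm7, of its ring, 3.56-fold, Cdc45, which binds that ring, 3.45-fold, the origin regulator Ticrr 3.59-fold and the loader Cdc6 3.26-fold. The single rise was of Dna2, a nuclease, 1.36-fold (SE at most 0.10 on the log2 scale, limma adjusted p at most 0.00923). Dna2 was not called under 2 of 18 alternatives (without IRF8 replicate 1 included), with a limma adjusted p up to 0.507. Among the 64 kinetochore and spindle genes tested (67 listed, 65 on the array, 63 above background in both groups), 60 fell (93.8%) and limma called none higher (0 at an unadjusted p under 0.05, 1 with quantile normalization, 1 with the replicate block), and the median log2 change was -1.22. Ska1 fell 3.55-fold, Spc24 3.48-fold, the motor Kif11 3.47-fold and the kinase Plk1 3.20-fold (SE at most 0.12 on the log2 scale, limma adjusted p at most 2.13e-04). Of 50 repair genes tested (51 listed, 50 on the array, all tested ones above background in both groups), 45 fell and limma called none higher (1 at an unadjusted p under 0.05, 1 above background on all 6 arrays, 1 with the replicate block, 1 with a trended and robust fit, 1 without control replicate 2), and the median log2 change was -1.19. Rad51b fell 4.78-fold, the exonuclease Exo1 3.84-fold and Fancb 3.57-fold (SE at most 0.18 on the log2 scale, limma adjusted p at most 3.62e-04). Among the 40 structural chromatin genes tested (42 on the array, 38 above background in both groups), 30 fell (75%) and 2 rose (5%), and the median log2 change was -1.16. The nucleosome-binding Hmgn5 read 2.77 and 2.90 on the control arrays and 0.56 and 0.79 on the IRF8-labelled arrays, 4.47-fold lower, the remodeller Hells fell 3.32-fold, and the rises were of Hmga2, 2.58-fold (1 of 2 control arrays above background), and the linker histone H1f0, 1.35-fold (SE at most 0.17 on the log2 scale, limma adjusted p at most 0.0444). H1f0 was not called under 9 of 18 alternatives (without control replicate 1, control replicate 2, IRF8 replicate 1 or IRF8 replicate 2 included), with a limma adjusted p up to 0.564. With normexp background correction Hmga2 was not called (limma adjusted p = 0.417). Of 71 chromatin enzyme genes tested (74 listed, 72 on the array, 68 above background in both groups), 29 fell (40.8%) and 11 rose (15.5%), and the median log2 change was -0.21. For the chromatin enzymes, 5 rose and 18 fell with spike-in scaling and 18 rose with the replicate block. The DNA methyltransferases Dnmt1 and Dnmt3b fell 3.31-fold and 3.39-fold and their guide Uhrf1 2.77-fold, while the deacetylase Hdac9 rose 8.41-fold (1 of 2 control arrays above background) (SE at most 0.24 on the log2 scale, limma adjusted p at most 6.10e-04).

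E2F factors bind TTTCCCGC and TTTGGCGC elements in promoters of replication genes. Over single promoters, 2.94% of tested genes held either element on either strand, 4.43% of those lower, 2.02% of those higher and 34.2% of replication genes, 13 of 38. For all single promoters of the table the share was 1.61%. The 2 sequences below were chosen after these shares were seen, as members with large falls; capitals mark the match. Mcm7 lies at chr5:138171834-138172133 (minus strand, 1 of 2 listed promoters) and Cdc6 at chr11:98907901-98908200 (plus strand).
Mcm7: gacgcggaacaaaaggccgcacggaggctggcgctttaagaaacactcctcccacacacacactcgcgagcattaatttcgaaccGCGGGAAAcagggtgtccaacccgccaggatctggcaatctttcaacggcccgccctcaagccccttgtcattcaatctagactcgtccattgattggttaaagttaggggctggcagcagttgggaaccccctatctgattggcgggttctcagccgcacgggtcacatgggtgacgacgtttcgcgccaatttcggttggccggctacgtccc
Cdc6: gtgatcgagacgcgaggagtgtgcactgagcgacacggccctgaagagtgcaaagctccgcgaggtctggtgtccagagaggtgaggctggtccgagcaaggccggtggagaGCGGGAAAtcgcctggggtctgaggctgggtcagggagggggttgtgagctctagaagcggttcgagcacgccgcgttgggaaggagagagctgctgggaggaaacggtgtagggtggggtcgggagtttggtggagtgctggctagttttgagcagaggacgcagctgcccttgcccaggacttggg
In both, the element lies upstream of the start, as its reverse complement GCGGGAAA. Mcm7 read 6.32 and 6.33 on the control arrays and 4.45 and 4.53 on the IRF8-labelled arrays. Cdc6 read 1.11 and 1.12 on the control arrays and -0.59 and -0.59 on the IRF8-labelled arrays, so both fell in both experiments.

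Transcription factor families moved in both directions. Of 22 Kruppel-like and EGR factors tested (28 on the array, 19 above background in both groups), 11 rose and 5 fell (22.7%), and the median log2 change was 0.65. For the Kruppel-like list, 2 fell with spike-in scaling and 3 fell without control replicate 1 or IRF8 replicate 2. The early growth response genes Egr1 and Egr2 rose 133-fold (1 of 2 control arrays above background) and 63.5-fold. Klf6 rose 13.8-fold and Klf5 fell 3.29-fold (SE at most 0.21 on the log2 scale, limma adjusted p at most 5.29e-04). Among the 41 bZIP factors tested (43 listed, 42 on the array, 37 above background in both groups), 19 rose (46.3%) and 15 fell (36.6%), and the median log2 change was 0.06. For the bZIP list, 8 fell with spike-in scaling. Their median was -0.07 with spike-in scaling. Atf3, a repressor induced by stress, read -5.12 and -4.54 on the control arrays and 3.37 and 3.60 on the IRF8-labelled arrays, 318-fold (1 of 2 control arrays above background) higher. Maf, which restrains macrophage renewal, rose at least 6.68-fold, Batf3, a partner of IRF8, 58.6-fold, Crem 30.9-fold (1 of 2 control arrays above background) and Fos 11.7-fold. Those that fell include Nfe2 of megakaryocytes, 7.07-fold, and Cebpe of granulocytes, 5.58-fold (SE at most 0.33 on the log2 scale, limma adjusted p at most 2.78e-04). In the IRF and ETS list 9 of 30 genes tested rose and 9 fell. Irf5 read -2.04 and -2.63 on the control arrays and 4.74 and 4.71 on the IRF8-labelled arrays, 133-fold higher, Irf9 rose 6.02-fold and Etv3 4.64-fold, and Ets1 fell 12-fold (SE at most 0.20 on the log2 scale, limma adjusted p at most 1.37e-04).

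Homeobox factors, known for progenitor growth, mostly fell. Of 25 Hox and TALE factors tested (44 on the array, 22 above background in both groups), 15 fell (60.0%) and 2 rose (8%), and the median log2 change was -0.60. For the Hox list, 9 fell with spike-in scaling. Hoxa5 fell 2.94-fold, Hoxa9 2.40-fold, Meis2 2.32-fold and Pknox2 at least 8.55-fold, and Meis3 rose 3.03-fold (SE at most 0.23 on the log2 scale, limma adjusted p at most 0.00310). Among the 30 MiT, E2F and MYC network factors tested (34 listed, 33 on the array, 29 above background in both groups), 15 fell and 8 rose (26.7%), and the median log2 change was -0.53. For the MiT, E2F and MYC list, 4 rose and 9 fell with spike-in scaling. Myc read 4.20 and 3.95 on the control arrays and 2.11 and 1.92 on the IRF8-labelled arrays, 4.17-fold lower, and Mybl2 fell 3.33-fold. The lysosomal gene regulators Mitf, Tfeb and Tfe3 rose 3.55-fold, 3.27-fold and 3.22-fold, and their relative Tfec fell 2.53-fold (SE at most 0.15 on the log2 scale, limma adjusted p at most 6.01e-04). A further list held helix-loop-helix, Ikaros, GATA and RUNX factors with some factors of other families, Bcl6 and Bcl11a among them. Of its 38 genes tested (46 on the array, 33 above background in both groups), 17 fell (44.7%) and 13 rose (34.2%). The median log2 change was -0.07, or -0.46 over genes above background in both groups. For the latter list, 11 fell with spike-in scaling. The median was 0.04 after quantile normalization. The repressor Bcl6 read -4.09 and -3.22 on the control arrays and 4.01 and 4.26 on the IRF8-labelled arrays, 221-fold (1 of 2 control arrays above background) higher, Gfi1b rose at least 18-fold and Id3 33.8-fold, and Bcl11a fell 9.62-fold (SE at most 0.45 on the log2 scale, limma adjusted p at most 3.30e-04). Of 31 nuclear receptors tested, 10 rose (32.3%) and 5 fell (16.1%), with a median of 0.07 that was -0.06 with spike-in scaling. For the nuclear receptors, 4 rose and 3 fell with spike-in scaling and 9 fell with the replicate block. Rora rose at least 6.54-fold and Rara, a retinoic acid receptor, 8.59-fold (SE at most 0.20 on the log2 scale, limma adjusted p at most 1.90e-04).

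Inflammasomes sense danger in the cytosol, and more of their tested genes rose than fell. Of those tested, 8 were above background on both IRF8-labelled arrays and on no control array. Of 34 inflammasome and pyroptosis genes tested (40 listed, 36 on the array, 22 above background in both groups), 21 rose (61.8%) and 3 fell (8.82%), and the median log2 change was 0.91, or 0.80 with genes below background in a group at their bounds, or 0.22 over genes above background in both groups. For the inflammasome list, 0 fell with spike-in scaling, 6 fell with the replicate block and 11 rose among genes above background on all 6 arrays. Ifi204, a DNA sensor, read -6.07 and -5.85 on the control arrays and 2.26 and 2.29 on the IRF8-labelled arrays, at least 136-fold higher, and Ifi209 rose 66.6-fold. Nod2, a sensor of bacterial cell wall, read -5.24 and -4.17 on the control arrays and 1.14 and 1.55 on the IRF8-labelled arrays, 66.3-fold (1 of 2 control arrays above background) higher. The sensor Nlrp3 rose at least 31.8-fold and the cytokine gene Il18 at least 34.6-fold. The falls were of Ifi208, 1.70-fold, Naip2, 1.67-fold, and Casp4, by log2 -0.59 (SE at most 0.40 on the log2 scale, limma adjusted p at most 0.0327). Ifi208 was not called under 5 of 18 alternatives (without control replicate 2 or IRF8 replicate 1 included), with a limma adjusted p up to 0.131. Casp4 was not called under 5 of 18 alternatives (without control replicate 2 or IRF8 replicate 1 included), with a limma adjusted p up to 0.152. With spike-in scaling Naip2 was not called (limma adjusted p = 0.0616). Among the 40 immune GTPase and TRIM genes tested (48 listed, 44 on the array, 34 above background in both groups), 22 rose (55%) and 11 fell (27.5%), and the median log2 change was 0.53. For the GTPase and TRIM list, 14 rose and 5 fell with spike-in scaling and 7 fell without control replicate 2. Gbp2 rose at least 14.6-fold, Gbp5 12.2-fold and Trim30a 5.67-fold, and Trim46 fell 5.59-fold (SE at most 0.36 on the log2 scale, limma adjusted p at most 6.26e-04). Of 42 ion channel genes tested (54 on the array, 36 above background in both groups), 21 rose and 5 fell (11.9%), and the median log2 change was 0.53. For the channel list, 9 fell with the replicate block. Mcoln2, a channel of endosomes, read -6.27 and -7.32 on the control arrays and 1.55 and 1.74 on the IRF8-labelled arrays, at least 87.7-fold higher. Trpv2 and Trpv4, of the plasma membrane, rose 8.19-fold and 7.52-fold, Kcnn4, a calcium-gated potassium channel, 6.40-fold and Itpr2, a calcium release channel, 6.44-fold, while Itpr1 fell 2.43-fold (SE at most 0.35 on the log2 scale, limma adjusted p at most 0.00116). In the caspase and death receptor list 10 of 29 genes tested rose (34.5%) and 7 fell (24.1%), against 25.8% and 35.7% of all genes tested. The median of that list was 0.05, and -0.08 with spike-in scaling. For the death receptor list, 3 rose and 3 fell with spike-in scaling and 6 rose without IRF8 replicate 1.

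**Figure D5:**
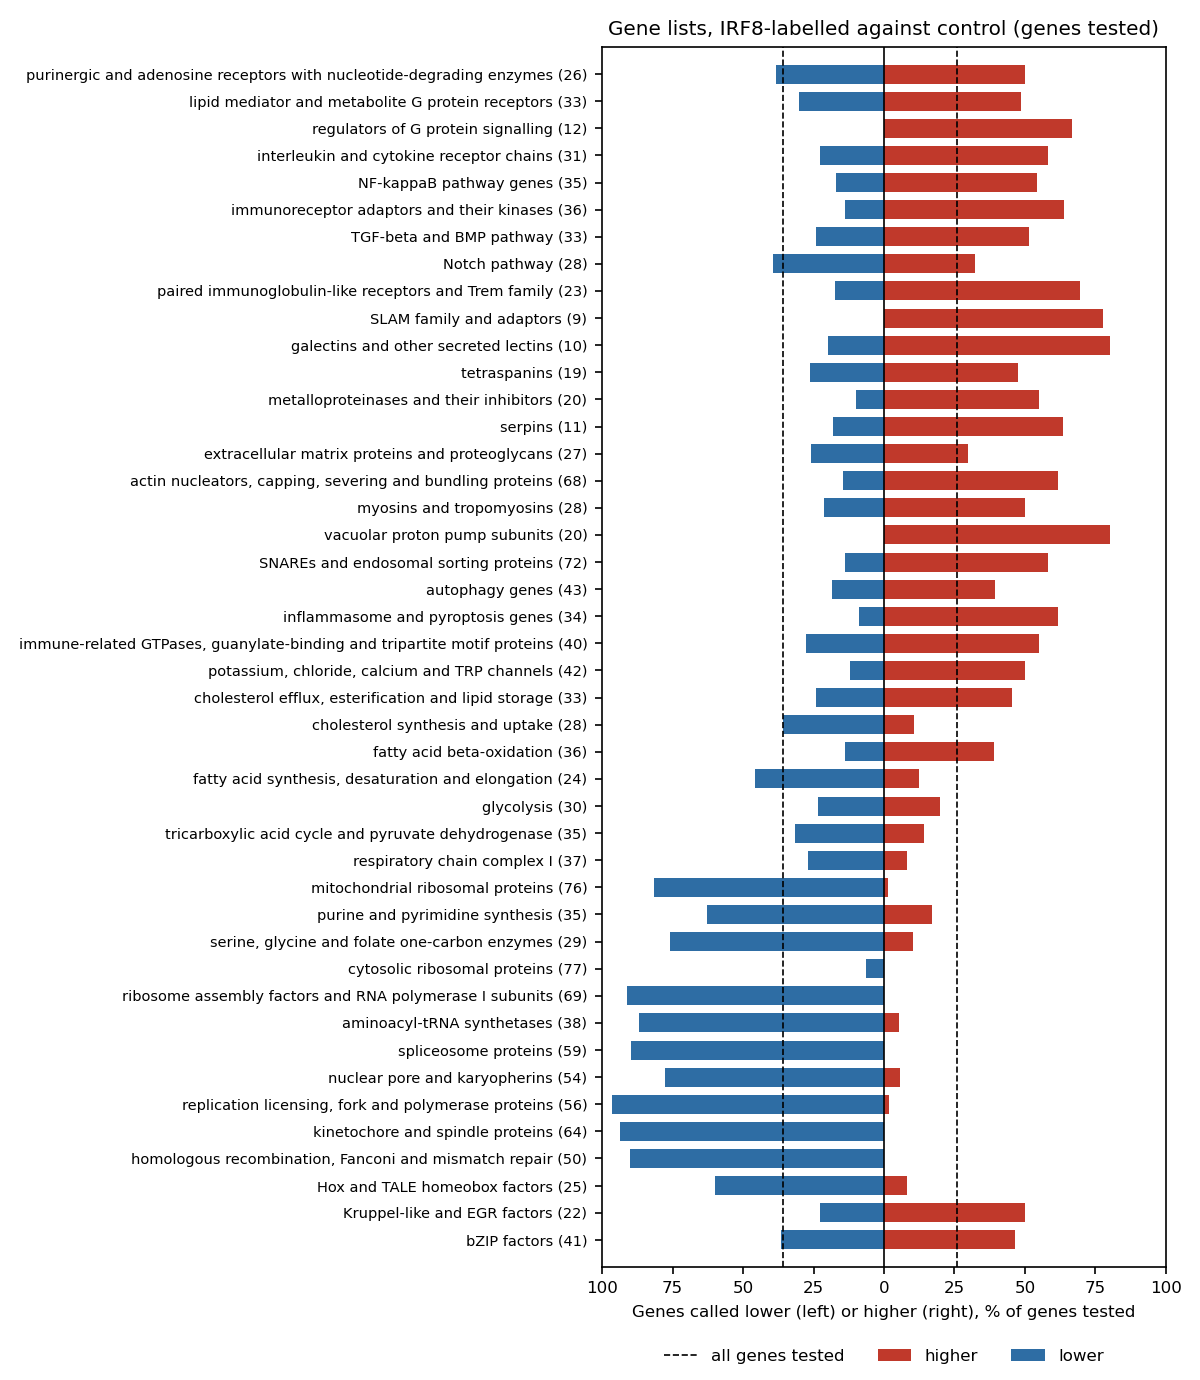
Share of the tested genes of 44 lists called lower (blue, left) or higher (red, right) in IRF8-labelled cells, with the number tested in brackets and dashed lines at the shares over all genes tested, 35.7% lower and 25.8% higher. Vesicle and actin lists pass the right line, the replication, kinetochore and mitochondrial ribosome lists pass the left line, and the cytosolic ribosomal proteins stay inside both.

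Symbols that share a stem were counted without regard to the lists, but the stems named here were chosen by hand. Beside the counts below, 25.8% of all genes tested were higher and 35.7% lower. The shares were 14.4% and 20.4% with spike-in scaling, and 31.3% and 43.8% with the replicate block. Of 86 stems with at least 15 tested genes, the zinc finger stem Zfp was the most numerous. It had 298 genes tested, 31 higher (10.4%) and 115 lower (38.6%), and 52 and 159 with the replicate block, 10 and 64 with spike-in scaling, and 20 higher without IRF8 replicate 2. Cd symbols, of surface antigens, had 67 tested with 36 higher and 10 lower, and a median log2 change of 1.31, or 1.04 with bounded genes at their bounds. Rab GTPases of vesicle traffic had 61 tested with 30 higher and 7 lower, 12 and 5 with spike-in scaling, and 32 and 11 with the replicate block. Snx symbols had 15 of 29 higher and 2 lower, 8 and 0 with spike-in scaling, and 0 lower without IRF8 replicate 1 or control replicate 2. Cep symbols, of centrosomes, had 36 tested with 3 higher and 26 lower, 5 and 28 with the replicate block and 1 and 18 with spike-in scaling. Ddx helicases had 2 of 32 higher and 21 lower, 0 and 13 without IRF8 replicate 1, 0 and 17 without control replicate 1, and 0 and 14 with spike-in scaling. Subunits named Polr had 20 of 26 lower and none higher in limma, with 9 lower under spike-in scaling. Carriers named Slc had 240 tested with 88 higher and 67 lower, but 65 and 68 among genes above background on all 6 arrays, and 50 and 42 with spike-in scaling. Olfr symbols, of olfactory receptors, had 104 tested with 21 higher (20.2%) and 4 lower (3.85%). Their counts were 7 and 1 with normexp background correction, and 8 and 4 among genes above background on all 6 arrays. Among gene classes, 37 of 212 long noncoding RNAs were higher (17.5%) and 71 lower (33.5%). Of 88 pseudogenes, 15 were higher (17.0%) and 30 lower (34.1%). Both shares of falls lay near the 35.7% of all genes tested. Probes named only by a genome region gave 6101 tested, of which 1010 were higher (16.6%) and 1228 lower (20.1%), in a fit over 29356 probes where 20.5% of all were higher and 29.6% lower.

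Changed genes also lay side by side on chromosomes. Runs of at least 4 neighbouring tested genes, all called the same way at 2-fold or more in the RefSeq order, numbered 22 higher and 18 lower. They are given as a description after values were seen, and related genes in a run can share probe sequence. The nucleotide receptor run Gpr171, P2ry14, P2ry13, P2ry12 and Mbnl1 rose by log2 1.80 to 7.71, with the 3 that were below background in control cells at their lower bounds. The Cd200r run, from Gtpbp8 over 4 Cd200r genes to Ccdc80, rose by 1.06 to 6.66, also with 3 at their bounds. Sirpb1a, Sirpb1b, Sirpb1c and a predicted gene, all 4 bounded, rose by at least 3.50 to 6.29, and the run of Pirb, Pira2, a predicted gene and Lilra6 by 3.75 to 6.91. Interferon-inducible Ifi207, Ifi204, Mndal, Ifi211 and Ifi202b, all 5 bounded, rose by at least 2.93 to 7.09. A run without sequence relatives also occurred, Tbxas1, Parp12, Kdm7a, Slc37a3, Rab19, Mkrn1 and Dennd2a, which rose by 1.14 to 5.32 over 7 genes, with Slc37a3 at its bound. Among falls, the glutathione transferases Gstm3, Gstm2, Gstm1 and Gstm4 with Ampd2 and Gnat2 spanned log2 -2.87 to -1.27. Bard1, Atic, Mreg, Pecr and Xrcc5, which are not a family, spanned -3.80 to -1.14.

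Probes of one gene did not always move together. Of 3460 genes with several tested probes, 25 had probes called in both directions. These genes too were picked after their values were seen, and adjusted p-values here are over all probes tested. Macroh2a1, a histone variant gene with splice forms, had a probe that rose by log2 2.81 ± 0.12 SE (limma adjusted p = 0.000138) and 2 that fell, by -1.16 ± 0.13 and -1.05 ± 0.18 SE. Wdfy1 had a probe at 3.68 ± 0.13 SE (limma adjusted p = 7.51e-05) and others called at -1.18 ± 0.36 and -0.47 ± 0.14 SE. Gab3, an adaptor of the M-CSF receptor pathway, had probes at 1.73 ± 0.12 and -1.32 ± 0.16 SE. Positions of the probes within transcripts are not known here.

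Markers of other blood and tissue cells were few. Their counts stand beside 25.8% higher and 35.7% lower over all genes tested. For lymphocytes and NK cells 11 of 32 genes on the array were tested, 1 rose and 5 fell, and the summed level of the tested genes, in units of the 75th percentile, was 14.5 and 15.2 on the control arrays and 16.3 and 13.2 on the IRF8-labelled arrays. Lck, the kinase of T cells, fell 7.61-fold (log2 change -2.93 ± 0.20 SE, limma adjusted p = 2.20e-04), and the rise was of Nkg7 (log2 change 0.81 ± 0.21 SE). Nkg7 was not called under 6 of 18 alternatives (without control replicate 1, control replicate 2 or IRF8 replicate 1 included), with a limma adjusted p up to 0.122. Its other probe changed by log2 -5.21, and the mean of both by -2.20. The B cell markers Cd79a, Ms4a1 and Pax5 and the T cell markers Cd3g and Cd8a were not tested, since no group had them above background on both arrays. For erythroid cells and megakaryocytes 14 of 28 were tested, 5 higher and 3 lower, with none of the 5 among genes above background on all 6 arrays, at summed levels of 4.45 and 4.77 against 7.24 and 7.28. For basophils, mast cells and eosinophils 14 of 26 were tested, 4 higher and 5 lower, at 6.64 and 6.95 against 4.01 and 3.62. Among genes above background on all 6 arrays, 1 of that list was higher and 3 lower. The basophil protease Mcpt8 read 1.97 and 2.04 on the control arrays and -2.36 and -2.31 on the IRF8-labelled arrays, 20.2-fold lower, and the histamine-forming enzyme Hdc fell 9.72-fold (1 of 2 IRF8-labelled arrays above background) (SE at most 0.32 on the log2 scale, limma adjusted p at most 7.14e-04). The mast cell protease Cpa3 and the receptor Fcer1a were not tested. For fibroblast, endothelial and epithelial cells 12 of 30 were tested, 2 higher and 2 lower, at 13.5 and 9.97 against 17.7 and 11.8. Of these markers, 0 were higher among genes above background on all 6 arrays. What part these cells have in the changes above was not tested.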

How the data were processed

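RNA was hybridised to Agilent single-colour arrays of 62976 spots. The deposited files hold background-subtracted processed intensities written by Feature Extraction 10.7.3.1, per the file headers. Gene spots of 1 probe were averaged, log2 of the processed intensity was taken minus the array's 75th percentile over gene spots, and 75 probes with outlier flags were dropped. Of 28353 probes with RefSeq-form accessions, 26728 matched the RefSeq table (GRCm38.p6), 1625 did not, and 28878 had no gene name. A gene is represented by its brightest probe.

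limma 3.58.1 in R 4.3.3 fitted the 3 groups over 6 arrays, with Benjamini-Hochberg adjustment over 13247 genes at 0.05. Nothing in the labels beyond the design text says how the 2 experiments were kept apart, and p-values measure the spread between these arrays. Replicate number equals slide; arrays with the same number deviated together (r of 0.282, 0.321 and 0.391 between pairs of groups), and the block is an alternative. The block and other alternatives are in the closing section. Members, lists and rules were chosen with earlier results of these data known. By rule, a list's named genes were up to 6 members with the largest called change whose arrays did not overlap between groups, and all members of a direction with 3 or fewer; beyond lists, the 30 largest rises and falls above background in both groups and the 30 brightest in 1 group alone. Other named members were chosen after their values were seen. On simulated data with 200 changed genes, 10 draws, the fit recovered 53.2% of changes of log2 1 and 87.8% of log2 2, with 5.38% false calls. Far fewer genes changed there than were called in the data, and the noise of its arrays was independent. Its rates therefore need not hold for the calls reported here. No protein or microRNA sequences were used. Some genes are not reported here.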

Additional observations from a re-analysis of the deposited data

How the results depend on the processing

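Scaling on 8 spike-in probes was the alternative that moved the counts of called genes by over 1.5 times, to 1913 higher and 2699 lower. The other scalings, background corrections, filters and fits gave 2774 to 4150 higher and 3889 to 5800 lower, the highest counts being those with the replicate number as a block. Leaving out 1 array at a time gave 2916 to 3297 higher and 3792 to 4453 lower. Normexp background correction was chosen after seeing the data, since it used median signals. Of 158 list counts, 73 moved by over 1.5 times and at least 2 genes with spike-in scaling, 21 with normexp, 19 without the filter on dim probes, 16 with the block and 13 among genes above background on all 6 arrays. Leaving out control replicate 1 or 2 moved 10 or 15, IRF8 replicate 1 or 2 moved 20 or 16, and either KLF4 array 3. The causes of these moves were not tested. Dim genes limit precision, with a median SE of 0.21 on the log2 scale over the 3312 dimmest genes and 0.11 over the 3312 brightest. With the mean of a gene's probes in place of the brightest, the log2 change turned sign to 0.20 for Macroh2a1, 0.21 for Gab3, 0.40 for Wdfy1 and -2.20 for Nkg7.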
